A study of Homo sapiens with 18 samples.

Results

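The 10 genes described here encode upstream parts of the Wnt signalling pathway: the ligands WNT5A and WNT11, 6 of the 10 human Frizzled receptors (FZD2, FZD4, FZD5, FZD6, FZD7 and FZD8), and the co-receptors LRP5 and LRP6. They form a named set, matched by gene symbol in each of 3 gene tables, among 37302 distinct gene IDs in all. All 10 were listed in all 3 tables.

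Wnt proteins are secreted, lipid-modified ligands that bind the cysteine-rich domain of a Frizzled receptor. When a Frizzled and LRP5 or LRP6 are engaged together, the cytoplasmic destruction complex is held back and beta-catenin enters the nucleus to act with TCF and LEF factors, whereas WNT5A and WNT11 are best known for beta-catenin-independent signalling through Frizzled with ROR, RYK or PTK7, including the planar cell polarity branch. Colon epithelium depends on the beta-catenin branch, and most colon cancers carry lesions of the destruction complex downstream of the receptors.

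Poly(A) RNA was sequenced from 18 cultured libraries in 6 groups of 3, and each pair of groups has its own table. SW480-LM3 is a highly metastatic line of SW480 colon cancer cells, recovered after 3 rounds of spleen injection, and SW480-P is its parent. EV-XP-NID1-LX-2 denotes LX-2 hepatic stellate cells kept for 48 hours with exosomes that contain the basement membrane protein nidogen-1 (NID1), and EV-XP-LX-2 is the control of that experiment. The labels do not say what the control cells were given. LV5-NID1 denotes SW480 cells that overexpress NID1 and were given GW4869 for 72 hours, a drug that blocks neutral sphingomyelinase and with it the release of exosomes, and LV5 cells served as control. What XP stands for, and whether LV5 cells also received GW4869, is not stated in the labels, so overexpression and drug cannot be told apart. SW480-LM3 is a single selected line. Nothing in the labels says that the 3 libraries of a group came from separate cultures, so p-values measure only the spread between libraries, which may be technical.

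The SW480-LM3 and SW480-P table holds scaled reads, called signal here, not divided by gene length, from 15531517 to 16586016 recovered reads per SW480-LM3 library and 15504205 to 18965163 per SW480-P library. The other tables hold TPM, which scales transcripts by length and to a common total per library, whose depth is unknown. NID1 stood at 46.9 ± 2.21 signal in SW480-LM3 and 0.501 ± 0.129 signal in SW480-P, and at 360 ± 16.6 TPM in LV5-NID1 and 0.02 ± 0.02 TPM in LV5 (SD, n = 3 each). In LX-2 cells NID1 stood at 20.8 ± 2.44 TPM in EV-XP-NID1-LX-2 and 25.4 ± 0.500 TPM in EV-XP-LX-2 (SD, n = 3 each), a log2 difference of -0.28 (adjusted p = 0.0372, limma) that was no longer called in 7 of 17 alternatives. Of 10 colon epithelial markers, 6 were called higher and none lower in SW480-LM3, with summed signals of 13175 to 13888 per library against 3522 to 3790 in SW480-P. The list of 11 stellate markers also had 3 called higher and none lower there, with summed signals of 809 to 864 against 685 to 727 in SW480-P. Of all genes tested, 43.9% were called higher. The epithelial cadherin CDH1 averaged 148 signal in SW480-LM3 and 1.67 signal in SW480-P. In LX-2 cells, 2 of the 10 epithelial markers reached a mean of 1 TPM, and the list's summed level was 199.7 to 232.0 TPM per library in EV-XP-NID1-LX-2 against 248.1 to 261.5 TPM in EV-XP-LX-2. The keratin KRT18 averaged 185 TPM in EV-XP-NID1-LX-2 and 199 TPM in EV-XP-LX-2. Its partner KRT8 averaged 35.4 TPM in EV-XP-NID1-LX-2 and 54.8 TPM in EV-XP-LX-2 and was called lower (adjusted p = 0.00109, limma). EPCAM, CDH1 and VIL1 averaged at most 0.107 TPM, while the stellate marker COL1A1 averaged 161 TPM in EV-XP-NID1-LX-2 and 203 TPM in EV-XP-LX-2. Of 11 stellate markers, 6 were called lower in EV-XP-NID1-LX-2, with summed levels of 2429 to 2808 TPM against 3426 to 3628 TPM in EV-XP-LX-2. In that comparison 42.3% of all genes tested were called, 17.8% higher and 24.6% lower. Across 14659 genes, the ranks of the mean level correlated at rho = 0.858 between SW480-P and LV5, both labelled SW480, against 0.702 between SW480-LM3 and LV5, over separately normalised tables. With the stellate EV-XP-LX-2 group, rho was 0.700 for SW480-LM3, 0.745 for SW480-P and 0.810 for LV5, so LV5 ranked closer to EV-XP-LX-2 than to SW480-LM3. Whether the SW480-LM3 libraries share their origin with SW480-P was not tested, and they are named by their labels. 2 libraries stood apart for GC-rich genes: among genes of at least 60% GC, LV5-NID1 replicate 3 lay a median of 0.66 log2 units below its 2 fellow replicates and EV-XP-NID1-LX-2 replicate 2 lay 0.23 below. Over all genes tested with a GC value, LV5-NID1 replicate 3 lay 0.04 above its fellows. EV-XP-NID1-LX-2 replicate 2 lay 0.12 below over all such genes, so it was low in general and lower still for GC-rich genes. Of the hepatocyte, endothelial and leukocyte lists, 1 or 2 of 6 markers each reached a mean of 1 in any comparison. The hepatocyte marker SERPINA1 was called higher in SW480-LM3 (95.9 signal, against 51.5 signal in SW480-P) and lower in EV-XP-NID1-LX-2 (13.3 TPM, against 21.0 TPM in EV-XP-LX-2). The endothelial adhesion gene ESAM was called lower in SW480-LM3 (0.206 signal, against 32.2 signal in SW480-P) and in LV5-NID1 (40.0 TPM, against 62.2 TPM in LV5). In LX-2 cells ESAM lay below the filter, at 1.07 TPM in EV-XP-NID1-LX-2 and 0.577 TPM in EV-XP-LX-2. The endothelial marker ROBO4 was called lower in EV-XP-NID1-LX-2 (26.5 TPM, against 36.3 TPM in EV-XP-LX-2). The macrophage gene CD68 was called lower in SW480-LM3 (16.9 signal, against 20.8 signal in SW480-P), in EV-XP-NID1-LX-2 (18.6 TPM, against 43.7 TPM in EV-XP-LX-2) and in LV5-NID1 (1.35 TPM, against 3.64 TPM in LV5). The part of these markers in the results was not tested. RefSeq start-site windows, 250 bases before to 50 after a gene's start (GRCh38.p14), were at hand for 5 of the 10 genes.

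For none of the 10 genes did the groups overlap between SW480-LM3 and SW480-P. Windows are printed for 3 of them, WNT5A, FZD5 and LRP5, a ligand, a Frizzled and a co-receptor. Each reads 5′ to 3′ along the gene's strand, and capitals mark a GC box, GGGCGG on either strand. WNT5A has a window at each of 2 starts, at chr3:55487257-55487556 and chr3:55481349-55481648 on the minus strand, FZD5 has one at chr2:207769857-207770156 on the minus strand, and LRP5 one at chr11:68312341-68312640 on the plus strand.
WNT5A start 1: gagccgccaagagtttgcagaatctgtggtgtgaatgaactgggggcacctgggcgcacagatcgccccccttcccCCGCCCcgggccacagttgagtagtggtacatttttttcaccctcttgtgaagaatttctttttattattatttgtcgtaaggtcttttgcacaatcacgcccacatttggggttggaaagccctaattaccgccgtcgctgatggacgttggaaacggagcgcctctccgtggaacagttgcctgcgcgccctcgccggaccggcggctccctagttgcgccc
WNT5A start 2: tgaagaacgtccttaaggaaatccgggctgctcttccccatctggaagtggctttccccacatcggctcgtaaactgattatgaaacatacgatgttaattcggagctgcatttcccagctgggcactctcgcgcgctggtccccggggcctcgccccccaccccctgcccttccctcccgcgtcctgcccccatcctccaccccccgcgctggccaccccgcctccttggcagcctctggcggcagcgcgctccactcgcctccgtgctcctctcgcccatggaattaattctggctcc
FZD5: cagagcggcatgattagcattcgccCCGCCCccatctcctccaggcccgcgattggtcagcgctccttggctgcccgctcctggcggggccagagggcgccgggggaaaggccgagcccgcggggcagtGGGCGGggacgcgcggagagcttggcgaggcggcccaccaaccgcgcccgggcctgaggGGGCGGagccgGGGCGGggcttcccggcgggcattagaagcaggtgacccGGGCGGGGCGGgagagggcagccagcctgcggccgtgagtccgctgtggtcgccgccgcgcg
LRP5: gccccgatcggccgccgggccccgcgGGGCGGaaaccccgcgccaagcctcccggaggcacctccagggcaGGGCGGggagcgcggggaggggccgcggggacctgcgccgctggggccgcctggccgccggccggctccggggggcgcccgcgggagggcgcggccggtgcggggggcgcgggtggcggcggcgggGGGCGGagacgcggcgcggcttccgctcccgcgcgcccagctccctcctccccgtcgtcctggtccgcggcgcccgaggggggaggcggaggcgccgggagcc

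The WNT5A windows held 1 and 0 GC boxes, against 6 in the FZD5 window and 3 in the LRP5 window, and 45% of 35116 windows held at least 1. Of the windows not printed, that of FZD4, higher in SW480-LM3, held 6, and that of FZD8, lower there, held 3. None of the 6 windows at hand, which belong to WNT5A, FZD4, FZD5, FZD8 and LRP5, held a match to TCF and LEF factors. The match was searched on both strands as CTTTGAA, then as CTTTGAT, then with the letters CTTTGTA, and last with the letters CTTTGTT, any of which 13.8% of all windows held. In the GENCODE 29 annotation (GRCh38), WNT5A spans chr3:55465715-55490539, FZD5 chr2:207762586-207769563 and LRP5 chr11:68312609-68449275. The tables give 1 value per gene, so they do not show which WNT5A start was in use.

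The comparison of SW480-LM3 with SW480-P asks how cells selected for metastasis differ from their parent. All 10 genes were called, 5 higher and 5 lower, where 87.8% of the 14527 genes tested were called, 43.9% higher and 43.9% lower. The groups did not overlap for any of the 10, against 87.6% of all genes tested. The median absolute log2 difference was 2.22 over the 10 genes and 0.90 over all genes tested. WNT5A, FZD6, FZD2, FZD7 and FZD8 were lower in SW480-LM3, and LRP5, LRP6, FZD5, WNT11 and FZD4 were higher. Calls rest on limma, fitted to log2(value + 1), and on an adjusted p (Benjamini-Hochberg, over all genes tested) below 0.05.

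**Figure D1:**
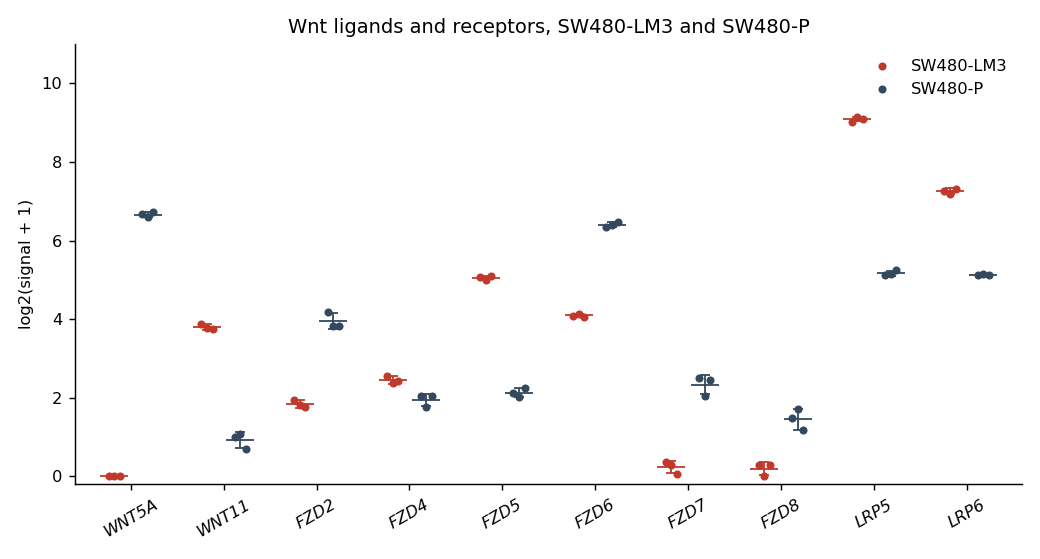
Signal of the 10 genes in the 3 SW480-LM3 and 3 SW480-P libraries, as log2(signal + 1) on the vertical axis, with points for libraries and a line and bar for mean and SD. The groups do not overlap for any of the 10 genes, WNT5A sits at 0 in SW480-LM3, and LRP5 is the highest gene there.

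Among the ligands, WNT5A was at 0 signal in all 3 SW480-LM3 libraries, against 101, 95.6 and 104 signal in the SW480-P libraries. It had no read in SW480-LM3 and 4537 reads over the SW480-P group. Set against a floor of 3 reads over the SW480-LM3 group, a limit that covers counting error only, its level was at least 1762-fold lower in SW480-LM3 (adjusted p = 2.82e-16, limma). WNT11, the other ligand, had 13.7, 12.8 and 12.4 signal in SW480-LM3, against 0.997, 1.11 and 0.634 signal in SW480-P. Every SW480-LM3 library lay above every SW480-P library for WNT11, and the log2 difference was 2.88 ± 0.14 (SE, adjusted p = 3.74e-11, limma). The exons of WNT11 overlap an antisense gene, AP000785.1, and no source states whether counting used strand, so reads of the pair cannot be told apart. In RNA from whole cultures, as here, fewer cells that express a gene and less of its RNA per cell cannot be told apart either.

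Of the Frizzleds, FZD6, a receptor studied mainly in planar polarity, had 16.1, 16.6 and 15.7 signal in SW480-LM3, against 80.6, 83.4 and 87.7 signal in SW480-P. The groups did not overlap, and FZD6 was 5.20-fold lower in SW480-LM3 (log2 difference -2.31 ± 0.06, SE, adjusted p = 5.52e-14, limma). FZD5, needed for Paneth cell maturation in mice, moved the other way, with 32.4, 31.2 and 33.2 signal in SW480-LM3 against 3.35, 3.09 and 3.74 signal in SW480-P. It was 9.52-fold higher in SW480-LM3 (log2 difference 2.92 ± 0.10, SE, adjusted p = 1.12e-12, limma). FZD2, a receptor that binds WNT5A, had 2.85, 2.52 and 2.39 signal in SW480-LM3, against 17.2, 13.3 and 13.2 signal in SW480-P. It was 5.63-fold lower in SW480-LM3 (log2 difference -2.11 ± 0.13, SE, adjusted p = 9.48e-10, limma).

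The other 3 Frizzleds were low in both lines. FZD7, close kin of FZD2 and FZD1, had 10 reads over the 3 SW480-LM3 libraries and 183 over SW480-P, at 0.291, 0.234 and 0.054 signal in SW480-LM3 against 4.63, 3.15 and 4.51 signal in SW480-P (adjusted p = 1.1e-08, limma). FZD8, close kin of FZD5, had 8 reads in SW480-LM3 and 82 in SW480-P, at 0.233, 0 and 0.217 signal in SW480-LM3 against 1.78, 2.27 and 1.27 signal in SW480-P (adjusted p = 5.27e-06, limma). FZD4, the receptor of norrin as well as of Wnts, had 4.89, 4.15 and 4.39 signal in SW480-LM3 and 3.13, 2.39 and 3.10 signal in SW480-P. Its log2 difference, 0.50 ± 0.14 (SE, adjusted p = 0.00323, limma), was the smallest of the 10 and was no longer called when an absolute log2 difference of at least 1 was asked for. FZD4 exons overlap those of PRSS23 and FZD6 exons those of the antisense gene BAALC-AS1, both on the opposite strand. The FZD8 exon holds the microRNA gene MIR4683, on the same strand. The reads of these genes are therefore uncertain too, to a degree that was not measured.

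Both co-receptors were higher in SW480-LM3. LRP5 had 519.7, 563 and 547 signal in SW480-LM3, against 34.0, 34.3 and 36.9 signal in SW480-P. It was 15.5-fold higher (log2 difference 3.92 ± 0.05, SE, adjusted p = 2.11e-17, limma). LRP6, its paralogue, had 153, 145 and 159 signal in SW480-LM3, against 33.9, 34.6 and 33.9 signal in SW480-P. It was 4.46-fold higher (log2 difference 2.12 ± 0.05, SE, adjusted p = 1.26e-14, limma). The libraries of the 2 lines lay far apart for both genes. In this table the SW480-LM3 libraries also ran higher for GC-rich genes, with a median of 0.30 to 0.36 log2 units above the mean of all 6 libraries at 60% GC or more, against -0.28 to -0.39 in SW480-P. With the GC trend removed, all 10 calls and directions held, with LRP5, of 62.8% GC, at a log2 difference of 3.35 and LRP6, of 40.2% GC, at 2.504. The part of the higher epithelial markers of SW480-LM3 in these differences was not tested.

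**Figure D2:**
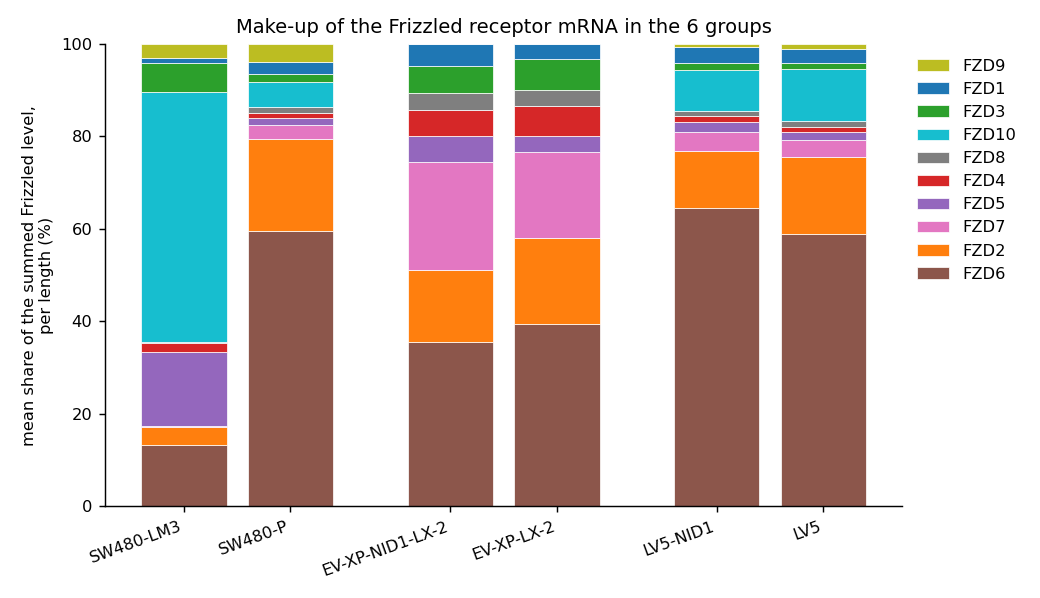
Mean share, in percent, that each Frizzled gene took of the summed Frizzled level per length in the 6 groups, over 3 libraries each, with each pair of groups side by side. FZD10 and FZD5 fill most of the SW480-LM3 column, FZD6 leads in the other 5 groups, and LX-2 cells show FZD7 and no FZD10.

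To compare genes with each other, values were set per length, as signal per kilobase of exon for this table. The summed level of all 10 human Frizzled genes was 30.2 ± 1.29 in SW480-LM3 and 34.6 ± 0.249 in SW480-P, while that of the 6 Frizzleds of the set was 10.7 ± 0.199 in SW480-LM3 and 29.9 ± 0.839 in SW480-P (signal per kilobase, SD, n = 3 each). Not divided by length, the sum of all 10 was 139.9 ± 3.62 signal in SW480-LM3 and 135.0 ± 3.34 in SW480-P, so its direction depended on length scaling. Signal totals per library also differed, at 899507 to 908688 in SW480-LM3 and 1102964 to 1104681 in SW480-P. Whether the summed Frizzled level differed was not tested. The make-up differed: FZD10 took 54.1% ± 3.06 of the sum in SW480-LM3 and 5.31% ± 0.373 in SW480-P, FZD5 took 15.96% ± 0.812 in SW480-LM3 and 1.46% ± 0.134 in SW480-P, and FZD6 took 13.2% ± 0.693 in SW480-LM3 and 59.6% ± 2.58 in SW480-P (SD, n = 3 each). FZD2 took 4.07% ± 0.560 in SW480-LM3 and 19.9% ± 3.01 in SW480-P. FZD10 itself, which is no member of the set, had 47.6, 56.0 and 57.2 signal in SW480-LM3 against 5.84, 6.47 and 5.78 signal in SW480-P (log2 difference 2.95, adjusted p = 3.31e-13, limma). FZD3 was also higher in SW480-LM3, at 26.0 ± 1.21 signal against 9.09 ± 1.77 in SW480-P. FZD1 was lower, at 2.499 ± 0.756 signal in SW480-LM3 against 6.24 ± 1.46 in SW480-P, and so was FZD9, at 2.07 ± 0.0942 signal in SW480-LM3 against 3.09 ± 0.567 in SW480-P (SD, n = 3 each).

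The order of the 10 genes per length was therefore another in the 2 lines. In SW480-LM3, LRP5 stood first at 88.1 ± 3.54 signal per kilobase, followed by LRP6 at 14.7 ± 0.696, WNT11 at 5.40 ± 0.265, FZD5 at 4.81 ± 0.151 and FZD6 at 3.97 ± 0.111 (SD, n = 3). FZD2 and FZD4 came next, and FZD7 and FZD8 overlapped just above WNT5A at 0. In SW480-P, FZD6 stood first at 20.6 ± 0.881 signal per kilobase, then WNT5A at 13.6 ± 0.576, FZD2 at 6.88 ± 1.07, LRP5 at 5.69 ± 0.263 and LRP6 at 3.30 ± 0.0392 (SD, n = 3). FZD7 followed, and FZD5, FZD8, FZD4 and WNT11 each overlapped their neighbour.

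Among 92 other Wnt pathway genes in 8 lists, 72 were tested, and 47 were called higher and 22 lower in SW480-LM3, with a median log2 difference of 0.69 against -0.004 over all genes tested. Most genes of this comparison were called: 87.8% of all genes tested, 43.9% higher and 43.9% lower. The counts of the single lists stand beside those shares and were not tested against them. Genes at 0 in a group did not move any of the list medians when placed at their bound. Scaling by library total moved the median of all genes to 0.26 log2 units and gave 48 higher and 19 lower. All 9 tested planar polarity partners were called higher (median log2 difference 1.29), among them the cadherin CELSR3 at 67.1 ± 4.20 signal in SW480-LM3 and 17.2 ± 1.01 in SW480-P and PRICKLE2 at 2.26 ± 0.553 in SW480-LM3 and 0.0387 ± 0.0670 in SW480-P. With the GC trend removed, 8 of the 9 were called higher. Of 9 other ligands, 3 were higher and 6 lower (median -0.39): WNT10B had 1.09 ± 0.440 signal in SW480-LM3 and 64.9 ± 2.48 in SW480-P, and WNT7B had 1.93 ± 1.04 in SW480-LM3 and 9.70 ± 0.608 in SW480-P. WNT6 had 13.3 ± 0.661 signal in SW480-LM3 and 5.47 ± 1.13 in SW480-P, and WNT2B had 2.32 ± 0.367 in SW480-LM3 and 1.12 ± 0.246 in SW480-P (SD, n = 3 each).

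Genes that make, carry or cut the ligand were split, 2 higher and 2 lower (median 0.29). PORCN, the acyltransferase that lipidates Wnts, had 55.0 ± 2.48 signal in SW480-LM3 and 12.1 ± 1.96 in SW480-P, and NOTUM, which removes that lipid, had 365 ± 5.15 in SW480-LM3 and 18.2 ± 1.35 in SW480-P. WLS, which carries Wnts to the cell surface, had 18.1 ± 2.18 in SW480-LM3 and 53.9 ± 1.22 in SW480-P, and the Wnt-cleaving protease TRABD2A had 3.00 ± 0.556 in SW480-LM3 and 60.4 ± 4.05 in SW480-P. Of 9 other receptors and co-receptors, 4 were higher and 4 lower (median 0.17). The receptors of the beta-catenin-independent branch split: PTK7 had 188 ± 9.25 signal in SW480-LM3 and 9.16 ± 1.69 in SW480-P, whereas ROR2, a WNT5A receptor, had no read in SW480-LM3 and 13.6 ± 0.512 signal in SW480-P, and RYK had 52.7 ± 1.57 in SW480-LM3 and 127.9 ± 2.69 in SW480-P (SD, n = 3 each).

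Of 7 antagonists, 3 were higher and 3 lower (median -0.15), with KREMEN1, which helps DKK1 take LRP5 and LRP6 off the surface, at 199 ± 4.42 signal in SW480-LM3 and 3.55 ± 0.904 in SW480-P, and SFRP5, a soluble Wnt binder, at 64.9 ± 0.847 in SW480-LM3 and 3.26 ± 0.518 in SW480-P. DKK1, the LRP5 and LRP6 antagonist itself, had 6.47 ± 0.665 signal in SW480-LM3 and 95.8 ± 2.75 in SW480-P, and DKK4 had 0.225 ± 0.146 in SW480-LM3 and 8.09 ± 0.819 in SW480-P. Of 6 genes of R-spondin signalling and Frizzled turnover, 4 were higher and 2 lower (median 3.00): the stem cell marker LGR5 had 56.7 ± 3.60 signal in SW480-LM3 and 0.0237 ± 0.0410 in SW480-P, LGR6 had 85.3 ± 6.25 in SW480-LM3 and 5.76 ± 1.49 in SW480-P, and LGR4 had 12.2 ± 0.908 in SW480-LM3 and 113.7 ± 5.21 in SW480-P. In the Dishevelled and destruction complex list, 16 of 20 were higher and 3 lower (median 0.52), or 14 higher and 5 lower with the GC trend removed. Over all genes tested, 43.9% were called higher and 43.9% lower. The beta-catenin target and scaffold AXIN2 had 385 ± 1.48 signal in SW480-LM3 and 58.2 ± 1.67 in SW480-P, CSNK1D had 223 ± 3.47 in SW480-LM3 and 52.5 ± 3.33 in SW480-P, APC had 40.2 ± 1.17 in SW480-LM3 and 83.3 ± 4.13 in SW480-P, and CSNK1A1 had 236 ± 0.614 in SW480-LM3 and 450.3 ± 13.7 in SW480-P. Of 8 nuclear partners, 6 were higher and 2 lower (median 1.43), with TCF7L2 at 46.5 ± 2.24 signal in SW480-LM3 and 4.23 ± 0.653 in SW480-P, and BCL9L at 165.7 ± 5.95 in SW480-LM3 and 30.9 ± 0.756 in SW480-P. PYGO1 had no read in SW480-LM3 and 17.1 ± 0.794 signal in SW480-P, and LEF1 had 5.26 ± 1.09 in SW480-LM3 and 13.7 ± 1.79 in SW480-P (SD, n = 3 each).

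**Figure D3:**
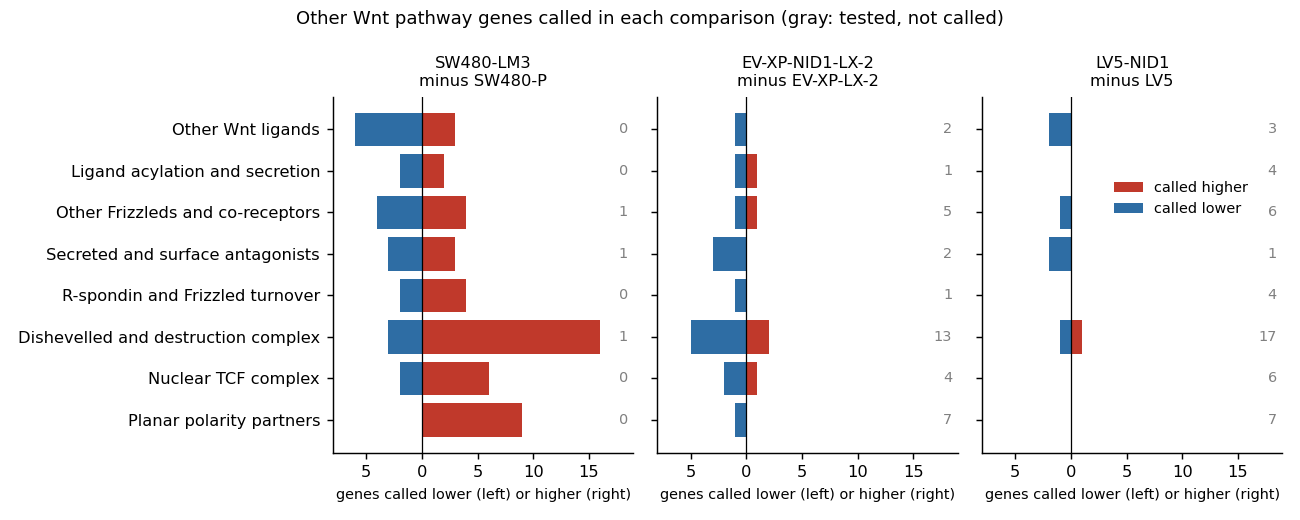
Number of genes of each of 8 Wnt pathway lists called higher (bars to the right) or lower (bars to the left) in each comparison by limma, with the number tested and not called in gray. SW480-LM3 against SW480-P has 47 higher and 22 lower, EV-XP-NID1-LX-2 against EV-XP-LX-2 has 5 and 15, and LV5-NID1 against LV5 has 1 and 6. Over all genes tested, the shares called higher and lower were 43.9% and 43.9%, 17.8% and 24.6%, and 7.27% and 9.32% in the same order.

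The second comparison asks how exosomes that carry NID1 act on hepatic stellate cells, the matrix-making cells of the liver. Of the 9 genes tested, 4 were called, where 42.3% of 15802 genes were called, 17.8% higher and 24.6% lower. WNT5A and FZD5 were higher and FZD6 and FZD2 lower in EV-XP-NID1-LX-2, all by less than 1.5-fold, and the other 5 were not called. The groups did not overlap for 5 of the 9, against 55.9% of all genes tested. The median absolute log2 difference was 0.24 over the 9 genes and 0.24 over all genes tested. WNT11 stayed below the filter of 1 TPM in 3 libraries, at 1.22, 0.33 and 1.16 TPM in EV-XP-NID1-LX-2 and 0.46, 0.98 and 0.34 TPM in EV-XP-LX-2.

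**Figure D4:**
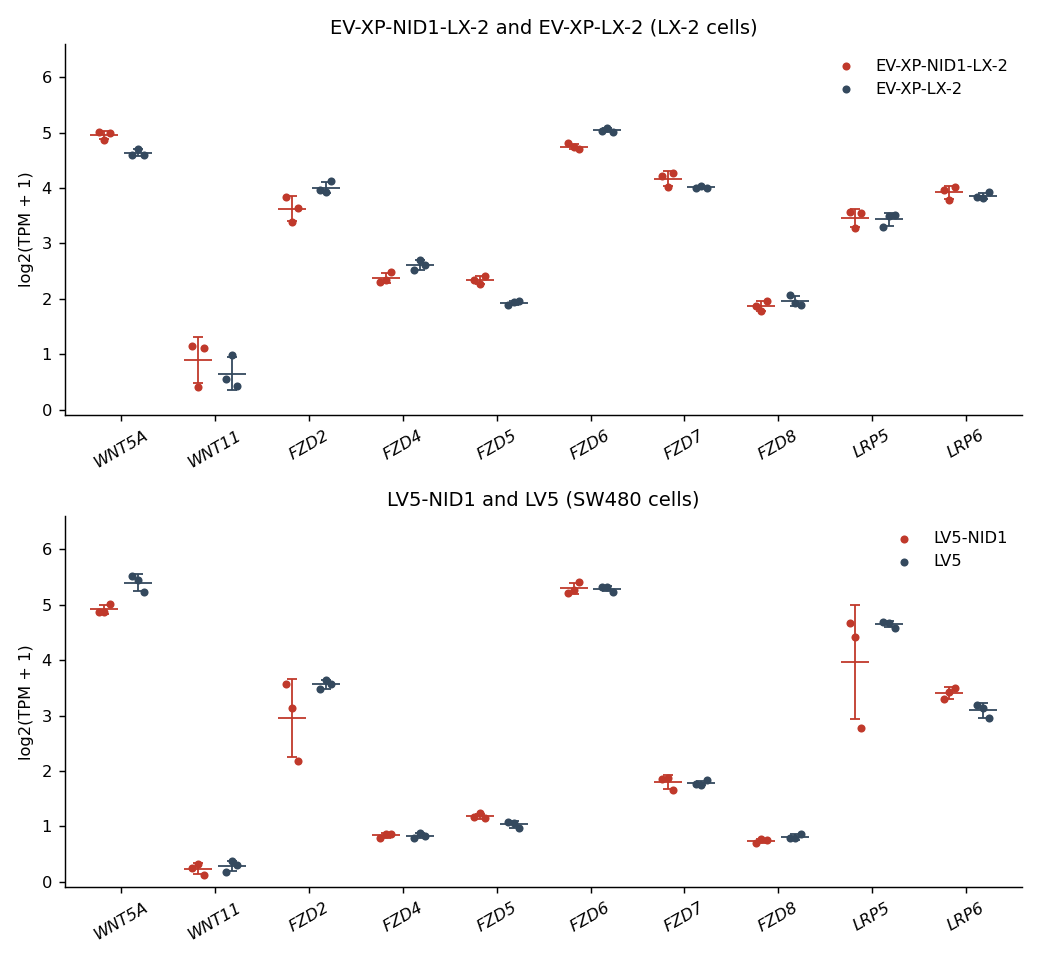
Level of the 10 genes as log2(TPM + 1) in EV-XP-NID1-LX-2 and EV-XP-LX-2 cells (upper panel) and in LV5-NID1 and LV5 cells (lower panel), with points for libraries and a line and bar for mean and SD. WNT5A lies higher in EV-XP-NID1-LX-2 and lower in LV5-NID1, and 1 LV5-NID1 library lies low for FZD2 and LRP5.

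WNT5A had 31.2, 28.2 and 30.7 TPM in EV-XP-NID1-LX-2, against 23.3, 25.1 and 23.3 TPM in EV-XP-LX-2. The groups did not overlap, and WNT5A was 1.26-fold higher in EV-XP-NID1-LX-2 (log2 difference 0.32 ± 0.06, SE, adjusted p = 0.00711, limma). Apart from asking for a log2 difference of at least 1, which none of the 9 reached, every alternative kept the call, with adjusted p from 0.0008 to 0.034.

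FZD6, the highest Frizzled of LX-2 cells, had 26.9, 25.6 and 25.2 TPM in EV-XP-NID1-LX-2, against 31.8, 32.9 and 31.3 TPM in EV-XP-LX-2. It was 1.24-fold lower without overlap (log2 difference -0.29 ± 0.05, SE, adjusted p = 0.00512, limma). FZD5 had 4.05, 3.80 and 4.33 TPM in EV-XP-NID1-LX-2, against 2.72, 2.82 and 2.91 TPM in EV-XP-LX-2. It was 1.44-fold higher (log2 difference 0.41 ± 0.10, SE, adjusted p = 0.0136, limma), and it was no longer called when EV-XP-LX-2 replicate 1 was left out (adjusted p = 0.0548) or with no filter on low values (adjusted p = 0.0506). FZD2 had 13.4, 9.48 and 11.5 TPM in EV-XP-NID1-LX-2, against 14.7, 14.3 and 16.4 TPM in EV-XP-LX-2. The groups did not overlap (log2 difference -0.38 ± 0.12, SE, adjusted p = 0.0396, limma). FZD2 has 64.9% GC, and the part of GC content in its values was not tested. The lowest value came from EV-XP-NID1-LX-2 replicate 2, the library that was low over all genes and more so for GC-rich genes. Without that library the log2 difference was -0.27 (adjusted p = 0.064), and with the GC trend removed it was -0.17 (adjusted p = 0.12). The call was lost in 11 of 17 alternatives, among them leaving out EV-XP-NID1-LX-2 replicate 3 (adjusted p = 0.081) or any 1 EV-XP-LX-2 library (adjusted p between 0.0662 and 0.12), and the adjusted p lay between 0.0165 and 0.264 (limma), leaving aside the alternative that asks for a log2 difference of at least 1.

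FZD4 had 3.94, 4.04 and 4.56 TPM in EV-XP-NID1-LX-2, against 4.76, 5.51 and 5.12 TPM in EV-XP-LX-2, with no overlap and an adjusted p of 0.0867 in limma. FZD7 had 17.7, 15.1 and 18.2 TPM in EV-XP-NID1-LX-2, against 15.1, 15.3 and 15.01 TPM in EV-XP-LX-2. The groups overlapped only through replicate 2 of EV-XP-NID1-LX-2, and FZD7 was not called (log2 difference 0.15 ± 0.08, SE, adjusted p = 0.17, limma). It was called without that library (0.23, adjusted p = 0.0138), with the GC trend removed (0.23, 0.0109), and after quantile or median-ratio scaling (0.26 and 0.21, adjusted p = 0.00567 and 0.0155). FZD8 had 2.65, 2.43 and 2.90 TPM in EV-XP-NID1-LX-2 and 3.18, 2.79 and 2.70 TPM in EV-XP-LX-2 (adjusted p = 0.556, limma).

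The co-receptors were not called. LRP5 had 10.8, 8.68 and 10.6 TPM in EV-XP-NID1-LX-2 and 8.80, 10.3 and 10.4 TPM in EV-XP-LX-2 (log2 difference 0.03 ± 0.11, SE, adjusted p = 0.864, limma). LRP5 was lowest in EV-XP-NID1-LX-2 replicate 2, the library low over all genes and more so for GC-rich genes. There LRP5 lay 0.28 log2 units below the 2 fellow replicates, and LRP6, of 40.2% GC, lay 0.20 below. The cause of these values was not tested. With the GC trend removed the log2 difference of LRP5 was 0.23 (adjusted p = 0.044, limma). LRP6 had 14.6, 12.8 and 15.1 TPM in EV-XP-NID1-LX-2 and 13.4, 13.1 and 14.2 TPM in EV-XP-LX-2 (adjusted p = 0.6, limma), and was called after quantile normalisation alone (log2 difference 0.18, adjusted p = 0.0381). Mitochondrial genes took 3.54% to 3.80% of TPM in EV-XP-NID1-LX-2 and 5.98% to 6.20% in EV-XP-LX-2, and the part of this and of the 6 lower stellate markers in the differences was not tested.

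Per length, the order in EV-XP-NID1-LX-2 was led by WNT5A at 30.03 ± 1.58 TPM, then FZD6 at 25.9 ± 0.917 TPM, then FZD7, LRP6, FZD2 and LRP5, each overlapping its neighbour. In EV-XP-LX-2 it was led by FZD6 at 32.0 ± 0.799 TPM, then WNT5A at 23.9 ± 1.05 TPM, FZD7 and FZD2, which overlapped, and LRP6 and LRP5 (SD, n = 3 each). WNT5A and FZD6 thus stood in opposite order in the 2 groups, with no overlap between them in either. FZD7 took 23.3% ± 1.09 of the summed Frizzled level in EV-XP-NID1-LX-2 and 18.7% ± 0.426 in EV-XP-LX-2, FZD6 took 35.6% ± 1.94 in EV-XP-NID1-LX-2 and 39.4% ± 1.32 in EV-XP-LX-2, and FZD10 was at or near 0 in both (SD, n = 3 each).

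Among the other pathway genes, 5 of 55 tested were called higher and 15 lower in EV-XP-NID1-LX-2, with a median log2 difference of -0.03 against -0.05 over all genes tested. The split moved with the scaling: it was 15 higher and 14 lower after median-ratio scaling, 14 and 10 after quantile normalisation, and 17 and 12 with the GC trend removed. For all genes tested the counts were 2805 higher and 3882 lower, and 3846 and 3530 with the GC trend removed. WLS, the Wnt carrier, had 184 ± 12.2 TPM in EV-XP-NID1-LX-2 and 120.3 ± 5.08 in EV-XP-LX-2, PORCN had 14.4 ± 3.01 in EV-XP-NID1-LX-2 and 27.0 ± 1.24 in EV-XP-LX-2, and WNT5B, the paralogue of WNT5A, had 21.6 ± 3.51 in EV-XP-NID1-LX-2 and 33.8 ± 3.61 in EV-XP-LX-2. PTK7 had 46.0 ± 3.51 TPM in EV-XP-NID1-LX-2 and 73.4 ± 2.29 in EV-XP-LX-2, and ROR1 had 2.25 ± 0.218 in EV-XP-NID1-LX-2 and 1.29 ± 0.122 in EV-XP-LX-2. The signal transducer DVL2 had 52.1 ± 6.43 TPM in EV-XP-NID1-LX-2 and 83.2 ± 2.21 in EV-XP-LX-2, and LEF1 had 13.2 ± 0.375 in EV-XP-NID1-LX-2 and 9.45 ± 0.601 in EV-XP-LX-2 (SD, n = 3 each). Adjusted p-values of these 7 genes ran from 0.00054 for PTK7 to 0.0127 for ROR1 in limma. Of them, only ROR1 lost its call in an alternative other than the minimum log2 difference, without EV-XP-LX-2 replicate 1 (adjusted p = 0.0513).

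Further calls in LX-2 cells were DKK3 at 109 ± 6.21 TPM in EV-XP-NID1-LX-2 and 144 ± 1.90 TPM in EV-XP-LX-2, and the casein kinase CSNK1G2 at 28.6 ± 4.92 TPM in EV-XP-NID1-LX-2 and 43.3 ± 0.750 TPM in EV-XP-LX-2 (SD, n = 3 each). CTNNB1, which encodes beta-catenin, was called higher at 222 ± 15.5 TPM in EV-XP-NID1-LX-2 and 191 ± 8.22 TPM in EV-XP-LX-2, and BTRC, part of the ligase that degrades it, at 13.5 ± 1.05 TPM in EV-XP-NID1-LX-2 and 10.8 ± 0.376 TPM in EV-XP-LX-2. KREMEN1, LGR4, BCL9, PYGO2 and VANGL1 were called lower, by 1.20-fold to 1.40-fold. These last 5 and CTNNB1 and BTRC each lost the call in 6 or more of the alternatives tried.

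The third comparison sets NID1-overexpressing, GW4869-treated SW480 cells against their control. Of the 7 genes tested, WNT5A alone was called, where 16.6% of 15508 genes were called, 7.27% higher and 9.32% lower. After quantile normalisation the counts over all genes were 1273 higher and 1054 lower, against 1127 and 1445 as deposited. WNT5A had 28.3, 28.2 and 31.2 TPM in LV5-NID1, against 44.9, 42.8 and 36.5 TPM in LV5. The groups did not overlap, and WNT5A was 1.42-fold lower in LV5-NID1 (log2 difference -0.48 ± 0.09, SE, adjusted p = 0.0219, limma). The direction held whichever library was left out, but the call did not: the adjusted p was 0.0571 and 0.0854 without LV5-NID1 replicate 1 or 2 and 0.0777 and 0.0873 without LV5 replicate 1 or 2. Without the library that was low for GC-rich genes, LV5-NID1 replicate 3, the log2 difference was -0.53 (adjusted p = 0.0144).

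The remaining genes tested were FZD2, FZD5, FZD6, FZD7, LRP5 and LRP6, and WNT11, FZD4 and FZD8 lay below the filter, with at most 0.84 TPM in any library. Over the 7 tested, the median absolute log2 difference was 0.31, against 0.20 over all genes tested, and 3 had groups that did not overlap, against 43.3% of all genes. LRP6 had 8.81, 9.77 and 10.3 TPM in LV5-NID1, against 8.18, 7.79 and 6.73 TPM in LV5, with no overlap and no call (log2 difference 0.31 ± 0.10, SE, adjusted p = 0.0778, limma). FZD5 had 1.24, 1.36 and 1.21 TPM in LV5-NID1, against 1.11, 1.08 and 0.96 TPM in LV5, also without overlap (adjusted p = 0.318, limma). FZD6 had 36.3, 37.4 and 41.6 TPM in LV5-NID1 and 39.1, 39.1 and 36.6 TPM in LV5, and its groups overlapped (log2 difference 0.01 ± 0.07, SE, adjusted p = 0.966, limma). FZD7 had 2.64, 2.68 and 2.14 TPM in LV5-NID1 and 2.41, 2.36 and 2.56 TPM in LV5 (adjusted p = 0.93, limma). Of 10 colon epithelial markers, 1 was called higher and 3 lower in LV5-NID1, with summed levels of 927 to 988 TPM against 1633 to 1673 TPM in LV5. Over all genes tested, 7.27% were called higher and 9.32% lower, and the part of these markers in the values above was not tested.

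LRP5 and FZD2 were uneven within LV5-NID1. LRP5 had 24.6, 20.5 and 5.87 TPM in LV5-NID1, against 24.9, 24.3 and 23.0 TPM in LV5, and FZD2 had 10.8, 7.75 and 3.53 TPM in LV5-NID1, against 10.2, 11.5 and 10.9 TPM in LV5. For both, the low value was replicate 3, and neither was called (adjusted p = 0.353 and 0.251, limma). Across 14506 genes, the difference of that library from its 2 fellow replicates fell with GC content (Spearman rho = -0.551, a description over genes of 1 library, which share its preparation). LRP5, of 62.8% GC, lay 1.77 log2 units and FZD2, of 64.9% GC, 1.17 log2 units below, while WNT5A, of 42.3% GC, lay 0.14 above. For the 1561 genes from 60% to under 65% GC, the median was -0.59 log2 units and the lower quartile -1.01. Both LRP5 and FZD2 lay below that quartile, and the cause of their low values was not tested. Without replicate 3 the log2 difference of LRP5 was -0.10 (adjusted p = 0.476) and that of FZD2 was -0.22 (adjusted p = 0.3).

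**Figure D5:**
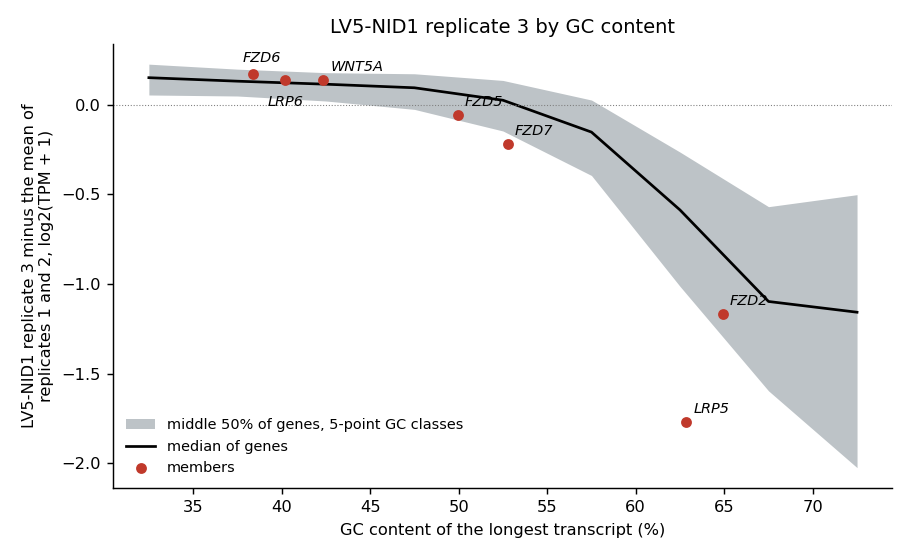
Difference of LV5-NID1 replicate 3 from the mean of replicates 1 and 2, in log2(TPM + 1), against GC content of the longest transcript in percent, with the median (line) and interquartile range (band) of genes in classes 5 points wide and the 7 tested genes in red. LRP5 and FZD2 lie at -1.77 and -1.17, while FZD6, LRP6 and WNT5A lie just above 0.

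Per length, WNT5A and FZD6 headed the order in both groups: FZD6 at 38.5 ± 2.79 TPM and WNT5A at 29.2 ± 1.69 TPM, without overlap, in LV5-NID1, and WNT5A at 41.4 ± 4.36 TPM and FZD6 at 38.3 ± 1.42 TPM, overlapping, in LV5 (SD, n = 3 each). LRP5, FZD2 and LRP6 came next in LV5, each apart from its neighbour, and overlapped in LV5-NID1, where the spread of LRP5 was 9.84 TPM. FZD6 took 64.6% ± 6.39 of the summed Frizzled level in LV5-NID1 and 58.8% ± 1.32 in LV5, and FZD10 took 8.78% ± 0.0501 in LV5-NID1 and 11.3% ± 0.330 in LV5 (SD, n = 3 each).

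Of 55 other pathway genes tested, 1 was called higher and 6 lower in LV5-NID1 (median log2 difference -0.05 against 0.01 over all genes tested). Over all genes tested, 7.27% were called higher and 9.32% lower. The ligand WNT10B had 39.5 ± 8.88 TPM in LV5-NID1 and 69.9 ± 1.67 in LV5, WNT9A had 1.42 ± 0.395 in LV5-NID1 and 2.97 ± 0.132 in LV5, and FZD10 had 5.24 ± 0.170 in LV5-NID1 and 7.36 ± 0.405 in LV5. DKK1 had 60.6 ± 5.26 TPM in LV5-NID1 and 88.7 ± 1.17 in LV5, the target gene AXIN2 had 2.61 ± 0.123 in LV5-NID1 and 4.34 ± 0.569 in LV5, and AMER1, an APC partner, was the one higher at 3.86 ± 0.265 in LV5-NID1 and 2.21 ± 0.355 in LV5 (SD, n = 3 each). Adjusted p-values of these genes ran from 0.00734 for DKK1 to 0.0234 for WNT10B in limma. DKK1 kept its call whichever library was left out, while the other 5 each lost it without LV5-NID1 replicate 2 and without LV5 replicate 1 or 2.

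Of the 7 genes tested in all 3 comparisons, WNT5A alone was called in each: at least 1762-fold lower in SW480-LM3, 1.26-fold higher in EV-XP-NID1-LX-2 and 1.42-fold lower in LV5-NID1. Over all genes tested, 87.8% were called in SW480-LM3, 42.3% in EV-XP-NID1-LX-2 and 16.6% in LV5-NID1. The share of genes called in all 3 comparisons was not computed, so the count for the set has no background to be read against. The LV5-NID1 call of WNT5A was lost in 6 of 17 alternatives. The tables share no library, differ in unit and were normalised separately, so the sizes were not tested against each other.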

How the data were processed

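Poly(A) RNA was extracted with TRIzol and selected with oligo(dT), per the labels' protocols, from 18 libraries in 6 groups of 3. HISAT2 2.1.0 and Bowtie2 2.3.5 are named without a role in the submitters' processing notes, and the sources used here name no counting tool, genome build, annotation or strandedness. For SW480-LM3 and SW480-P the authors deposited a signal, gene read counts divided by 1 factor per library: 100% of values came out whole, within 0.05 read. For the other 2 tables the authors deposited TPM values.

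Genes of at least 1 in at least 3 libraries were tested on log2(value + 1) with limma 3.58.1 (R 4.3.3, variance trend), 1 table at a time, without a block, with Benjamini-Hochberg adjustment over all genes tested and calls under 0.05. Fold changes on that scale understate the change of low genes. On the recovered reads edgeR 4.0.16 called 12687 genes and DESeq2 1.42.0 called 12386, against 12749 with limma. Gene names followed each table's gene symbol and Ensembl ID, since a second symbol in the SW480-LM3 table differed for 1596 genes. Exon lengths and the GC content of the longest transcript came from GENCODE 29. The fit was also run on simulated data with independent noise and no GC effect, so that run does not cover the 2 libraries that stood apart. Other pathway genes were named as the largest called changes with a mean of at least 2 in a group, up to 2 in each direction per list. The genes described and all lists were chosen with earlier results of these data known. The alternatives with a GC trend removed (a spline with 5 degrees of freedom) were chosen after seeing the data.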

Additional observations from a re-analysis of the deposited data

How the results depend on the processing

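Of 454 log2 differences of the 10 genes under alternative settings, 408 kept direction and side of the threshold, 23 lost the call, 8 gained it and 15 changed sign, while for the other named genes 855 of 968 kept the call and 113 lost it. In SW480-LM3 all 10 calls held in every alternative that tested the gene, but for FZD4 with a log2 difference of at least 1. FZD4, FZD7 and FZD8 were not tested in the alternative that asks for a mean of at least 5. No sign change touched a called gene, and the cause of these changes was not tested. In EV-XP-NID1-LX-2, FZD8 was at 0.0232 after quantile normalisation, 0.1276 with the GC trend removed and 0.0934 with replicate 2 of EV-XP-NID1-LX-2 also left out, and LRP5 lay between -0.0434 and 0.1197 with 1 library left out. In LV5-NID1, FZD6 was at -0.0044 after median-ratio scaling, -0.0754 with the GC trend removed and -0.0964 with LV5-NID1 replicate 3 also left out, where LRP5 was at 0.0272. With 1 library left out, FZD6 lay between -0.0515 and 0.0441 and FZD7 between -0.026 and 0.0885 in LV5-NID1.

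Of 159 counts and shares, 33 moved. Asking for a log2 difference of at least 1 left 6592 genes in SW480-LM3, 280 genes, 0 of the set and 0 pathway genes in EV-XP-NID1-LX-2, and 220 genes, 0 of the set and 1 pathway gene in LV5-NID1. With no filter on low values, which tests more genes, EV-XP-NID1-LX-2 had 2 of the set and 12 pathway genes called, and LV5-NID1 had 1532 genes and 3 pathway genes. A mean of at least 5 left 3 pathway genes in LV5-NID1, and the GC trend removed without LV5-NID1 replicate 3 gave 11. Leaving out 1 library gave 2 to 4 of the set and 10 to 23 pathway genes in EV-XP-NID1-LX-2, and 713 to 3325 genes, 0 to 1 of the set and 2 to 7 pathway genes in LV5-NID1. Frizzled shares not divided by length were 1.85% in SW480-LM3 and 10.8% in SW480-P for FZD2, 23.1% in SW480-LM3 and 2.51% in SW480-P for FZD5, 11.5% in SW480-LM3 for FZD6, and 38.3% in SW480-LM3 and 4.47% in SW480-P for FZD10.

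The deviations of same-numbered libraries of paired groups had correlations from -0.0474 to 0.0632. With 3 libraries a group, this cannot settle whether same-numbered libraries were prepared together. With the replicate number as a block, LV5-NID1 had 890 genes, 0 of the set and 2 pathway genes called, with WNT5A at an adjusted p of 0.0801 in limma, and no other of the 10 genes changed its call.

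TPM tables keep no depth, so the precision of low genes such as WNT11 there is unknown. Having 3 libraries a group limits every test, and dividing by library total applied to the SW480-LM3 table alone, as the TPM tables share a total.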

Other observations

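RNF43 and ZNRF3, membrane ubiquitin ligases that remove Frizzled receptors from the cell surface, were picked out after their values were seen. In SW480-LM3 both were higher: RNF43 had 112 ± 0.762 signal in SW480-LM3 and 19.5 ± 1.16 signal in SW480-P (adjusted p = 1.4e-14, limma), and ZNRF3 had 158 ± 7.32 signal in SW480-LM3 and 12.7 ± 1.81 signal in SW480-P (adjusted p = 1.09e-14, limma; SD, n = 3 each). In LX-2 cells RNF43 was near 0, while ZNRF3 had 6.78, 6.0 and 6.67 TPM in EV-XP-NID1-LX-2, against 5.03, 5.57 and 5.16 TPM in EV-XP-LX-2, without overlap and without a call (adjusted p = 0.0524, limma). In the third table ZNRF3 had 2.29 ± 0.183 TPM in LV5-NID1 and 2.21 ± 0.367 TPM in LV5 (adjusted p = 0.828, limma), and RNF43 lay below the filter.

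Another 3 planar polarity partners, also picked after their values were seen, were called higher in SW480-LM3, as were 43.9% of all genes tested. The scaffold SCRIB had 76.5 ± 0.610 signal in SW480-LM3 and 30.8 ± 1.17 signal in SW480-P, the formin DAAM1 had 30.8 ± 0.856 signal in SW480-LM3 and 11.7 ± 0.695 signal in SW480-P, and VANGL2 had 1.63 ± 0.564 signal in SW480-LM3 and 0.0943 ± 0.0817 signal in SW480-P (SD, n = 3 each). None of the 3 was called in EV-XP-NID1-LX-2 or in LV5-NID1, where VANGL2 lay below the filter. SCRIB, like LRP5 and FZD2, was uneven in LV5-NID1, at 31.5, 17.8 and 5.36 TPM there against 27.7, 25.5 and 20.8 TPM in LV5.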
